A study of Mus musculus with 12 samples.

Results

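The comparison described here sets mouse embryonic stem (ES) cells grown in 2iL against ES cells grown in serum/LIF when both were treated with JQ1. It rests on 4 of the 12 libraries of the series, taken by their labels: 2 libraries of JQ1 in 2iL and 2 of JQ1 in serum/LIF. None of the 4 is labelled as a knockout, so these cells are called unmodified, and each culture received 100 nM JQ1 for 60 h. The 2iL cells grew on gelatin in a serum-free medium with N2 and B27 supplements, 1000 U/ml LIF, the MEK inhibitor PD0325901 at 1 µM and, at 3 µM, an inhibitor whose name is missing from the label and which the design text gives as one of GSK3. The serum/LIF cells were kept in 15% fetal bovine serum and 1000 U/ml LIF on mitomycin-treated mouse embryonic fibroblasts, which no longer divide, and moved to gelatin for the experiment. Serum, inhibitors, supplements and feeder history differ together between the media and cannot be told apart. The labels give no line, strain or sex and do not tell how the replicates of a group were made, so a p-value reflects the scatter among the libraries at hand and that scatter may be technical. The 4 unmodified libraries given the solvent DMSO, 2 in 2iL and 2 in serum/LIF, serve for a test of whether the medium difference itself differed with JQ1. The last 4 libraries are of GSK3 knockout ES cells in serum/LIF, 2 with JQ1 and 2 with DMSO. They entered the fit, where they bear on the spread, the low-count filter and the scaling, and were in none of the comparisons tested. Levels of the 2 with JQ1 are also given at the end.

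ES cells in 2iL are known for a uniform naive state, in which pluripotency factors of the early embryo are active and genes of differentiation are quiet. MEK passes the FGF signal on to ERK, which pushes ES cells out of that state, and GSK3 marks beta-catenin for destruction, so that its inhibition lifts the repression of naive genes by a TCF factor. LIF acts through JAK kinases and the factor STAT3, and JQ1 displaces BET proteins from acetylated histones.

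Levels are CPM, counts scaled to a common library size. A log2 fold change is 2iL over serum/LIF, given with its standard error (SE), so a positive value means higher in 2iL, and it compares 2 libraries with 2. A gene passed at an adjusted p under 0.05 in edgeR's quasi-likelihood test with Benjamini-Hochberg adjustment over all genes tested, and "higher" or "lower" in a count means that it passed. The JQ1 libraries held 17869865 and 23574898 expected counts in 2iL, against 22922418 and 20396918 in serum/LIF, within a range over the series of 17869865 to 48723436. Mitochondrially encoded genes took 4.67% and 4.82% of counts in 2iL with JQ1, against 6.45% and 7.51% in serum/LIF with JQ1. The replicates of serum/LIF with JQ1 differed more from each other than those of 2iL with JQ1, with a mean chi-square per gene of 6.84 in 2iL and 32.6 in serum/LIF. Pou5f1, the factor that defines pluripotent cells, had between 417 and 844 CPM in all 4 libraries.

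Of 16987 genes tested, 9046 differed between the media under JQ1 (53.3%), 4307 of them higher in 2iL (25.4%) and 4739 lower (27.9%). The counts of each gene list stand against these shares, and a list near them does not stand apart from other genes. With a log2 fold change of at least 1 in size as well, 1868 were higher and 3441 lower. The median over all genes tested was 0.00. In 6304 genes (37.1%) both 2iL libraries lay above both serum/LIF libraries, and in 6579 (38.7%) both lay below.

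**Figure D1:**
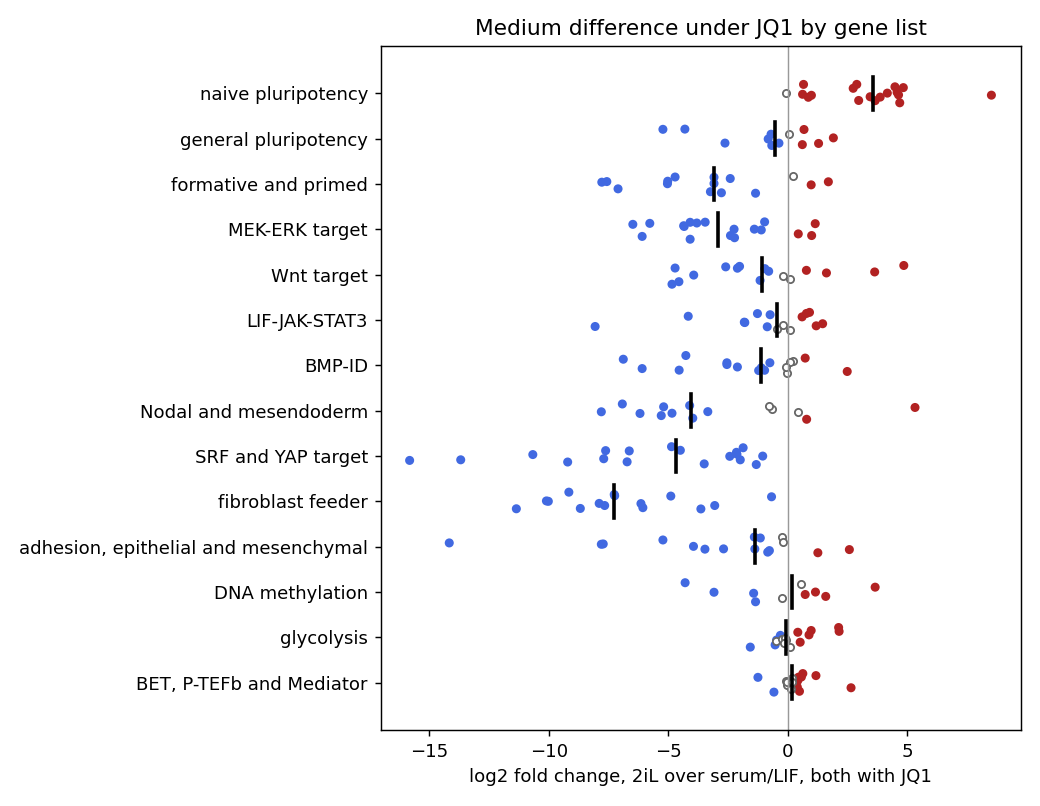
Log2 fold change (2iL over serum/LIF, both with JQ1) of every tested member of 14 gene lists, 1 row per list and 1 point per gene, filled where the gene passed (red higher, blue lower) and open where it did not, with a vertical bar at the list's median. Naive pluripotency genes lie to the right, with a median of 3.57, and MEK-ERK targets, SRF and YAP targets and fibroblast markers lie to the left, with medians of -2.92, -4.67 and -7.26.

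Naive pluripotency genes stood far higher in 2iL. Of 18 members 17 were higher and 1 did not pass, where 25.4% of all genes were higher, and the median log2 fold change was 3.57. Nanog (ENSMUSG00000012396.12, chromosome 6, 122707489 to 122714633, plus strand, GRCm38), a core factor of the naive state, had 908 and 969 CPM in 2iL, against 44.3 and 59.6 CPM in serum/LIF. The groups lay far apart, with a ratio of means of 18.1 and a log2 fold change of 4.18 ± 0.16 (adjusted p = 9.39e-10). The promoter of Nanog is shown because the gene is the core factor of the list and its promoter is a well-studied meeting point of pluripotency factors. The letters are those of RefSeq on GRCm38.p6 for chr6:122707315-122707614 on the plus strand, 250 bases before to 50 after a start site, with an octamer core (TTTGCAT), bound by POU factors such as Pou5f1, in capitals together with an element bound by SOX factors (ACAATG) that starts 1 base after it.

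Nanog promoter: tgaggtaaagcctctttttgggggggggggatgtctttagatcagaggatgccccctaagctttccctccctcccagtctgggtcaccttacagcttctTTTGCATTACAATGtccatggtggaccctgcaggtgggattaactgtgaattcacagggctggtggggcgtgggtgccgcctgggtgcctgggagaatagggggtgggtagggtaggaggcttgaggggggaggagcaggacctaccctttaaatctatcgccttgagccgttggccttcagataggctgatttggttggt

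The match begins 151 bases before this start site, and the pattern was written after the window had been seen. Searched on both strands, it occurred in the windows of 1 of 27025 genes, Nanog itself, whereas the octamer core alone, TTTGCAT, occurred in 5.24% of genes. RefSeq gives Nanog another window upstream, which holds the same match. None of the patterns CTTTGAT (TCF/LEF), CCGGAAG (ETS), TTCNNNGAA (STAT) and AAGGTCA (ESRRB) matched in either window, which says nothing about those factors at the gene.

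The factors that work with Nanog were higher as well. Esrrb, a nuclear receptor that can take the place of Nanog, had 862 and 899 CPM in 2iL, against 47.4 and 72.4 CPM in serum/LIF (log2 fold change 3.88 ± 0.23). Tfcp2l1, a factor downstream of LIF, had 1115 and 1041 CPM in 2iL, against 43.7 and 42 CPM in serum/LIF (4.65 ± 0.19). Tbx3, a T-box factor, had 358 and 309 CPM in 2iL, against 15.9 and 13.5 CPM in serum/LIF (4.5 ± 0.13). In these 3 genes the serum/LIF libraries kept a low level that counts could still measure well. Klf4 and Klf2, zinc finger factors of the same network, differed less. Klf4 had 163 and 172 CPM in 2iL, against 20.9 and 21.4 CPM in serum/LIF (2.98 ± 0.15). Klf2 had 448 and 460 CPM in 2iL, against 50.5 and 71.2 CPM in serum/LIF (2.9 ± 0.18). Their relative Klf5 was the nearest to even, with 185 and 158 CPM in 2iL, against 117 and 98.2 CPM in serum/LIF (0.67 ± 0.12), and its groups still did not overlap.

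Prdm14, a repressor of differentiation genes and FGF signalling in ES cells, was almost silent in serum/LIF with JQ1. It had 66.1 and 74.7 CPM in 2iL, against 0.13 and 0.242 CPM in serum/LIF, where both serum/LIF libraries together held 8 counts (8.54 ± 0.45, adjusted p = 8.22e-09). Nr5a2, a nuclear receptor of pluripotency, had 118 and 117 CPM in 2iL, against 4.43 and 4.6 CPM in serum/LIF (4.7 ± 0.20). Fgf4, the FGF that ES cells make themselves, had 249 and 221 CPM in 2iL, against 17.7 and 25.1 CPM in serum/LIF (3.46 ± 0.20), so that the ligand stood higher in the medium that holds the MEK inhibitor. Dppa3, a maternal factor that guards imprints, was the member that did not pass, with 14.1 and 17.9 CPM in 2iL, against 11.7 and 21.6 CPM in serum/LIF, and its groups overlapped.

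**Figure D2:**
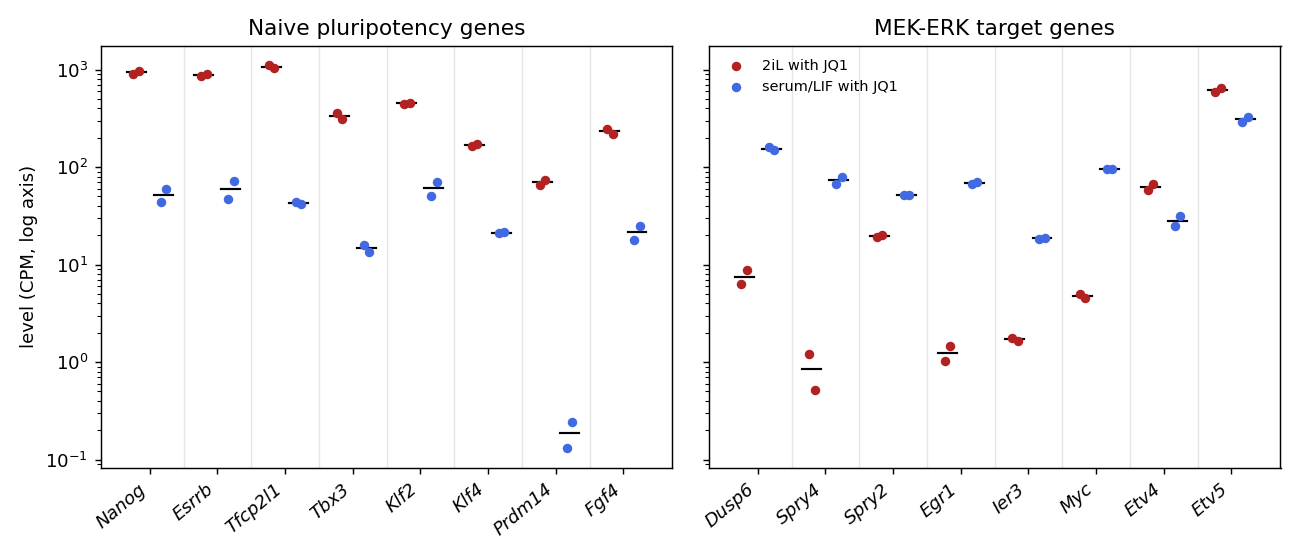
Level in each library (CPM, log axis) of 8 naive pluripotency genes and 8 MEK-ERK target genes under JQ1, with the 2 libraries of 2iL left of the 2 libraries of serum/LIF for each gene and a short bar at each group's mean. The 8 naive genes all lie higher in 2iL, from Prdm14 at 66.1 and 74.7 CPM to Tfcp2l1 at 1115 and 1041 CPM, and of the 8 ERK genes Etv4 and Etv5 lie higher in 2iL and the other 6 lower.

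Genes of general pluripotency, which ES cells express in either state, went both ways: 4 of 12 were higher (2 without the first serum/LIF library or the first 2iL library), 7 lower and 1 did not pass, with a median of -0.51. Sox2, the DNA-binding partner of Pou5f1, had 472 and 600 CPM in 2iL, against 163 and 271 CPM in serum/LIF (1.3 ± 0.23). Pou5f1 had 844 and 801 CPM in 2iL, against 417 and 652 CPM in serum/LIF (0.62 ± 0.17, adjusted p = 0.00867). The Pou5f1 call was lost without the first serum/LIF library (log2 fold change 0.34, adjusted p = 0.0687) and without the first 2iL library (log2 fold change 0.54, adjusted p = 0.0617). Sall4, a zinc finger partner of both, had 341 and 306 CPM in 2iL, against 303 and 320 CPM in serum/LIF and did not pass. Lin28a, which binds RNA and blocks the let-7 family, was lower, with 16.5 and 24.6 CPM in 2iL, against 411 and 406 CPM in serum/LIF (-4.3 ± 0.23). Utf1, a chromatin factor of ES cells, had 55.1 and 51.4 CPM in 2iL, against 265 and 392 CPM in serum/LIF (-2.62 ± 0.18).

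Genes of the formative and primed states, which follow the naive state in the embryo, were mostly lower in 2iL: 12 of 15 were lower and 2 higher (1 without the first serum/LIF library or the first 2iL library), with a median of -3.08. Pou3f1, a POU factor of the later epiblast, had 0.626 and 1.03 CPM in 2iL, against 151 and 176 CPM in serum/LIF (-7.57 ± 0.23). Otx2, which brings Pou5f1 to new enhancers as naive cells advance, had 2.33 and 2.46 CPM in 2iL, against 15.7 and 29.7 CPM in serum/LIF (-3.23 ± 0.35). Cldn6, a tight junction protein, had 2.9 and 2.07 CPM in 2iL, against 543 and 535 CPM in serum/LIF (-7.78 ± 0.17). In 2iL these genes stayed under 3 CPM in both libraries. Zic2, a zinc finger factor, went the other way, with 66.7 and 97.8 CPM in 2iL, against 16.8 and 33.6 CPM in serum/LIF (1.71 ± 0.30). Fgf5, the usual marker of the primed epiblast, was low in both media, with 0.114 and 0.0862 CPM in 2iL, against 2.61 and 4.16 CPM in serum/LIF (-5.03 ± 0.53).

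MEK-ERK target genes were mostly lower in 2iL: 15 of 18 were lower and 3 higher, with a median of -2.92. Among feedback inhibitors of the pathway, Dusp6, a phosphatase of ERK, had 6.38 and 8.71 CPM in 2iL, against 160 and 150 CPM in serum/LIF (-4.35 ± 0.28). Spry4, a Sprouty protein that dampens receptor signals, had 1.2 and 0.517 CPM in 2iL, against 67.9 and 78.9 CPM in serum/LIF (-6.48 ± 0.25, and -7.18 without the first 2iL library with JQ1). The immediate early factor Egr1 had 1.02 and 1.47 CPM in 2iL, against 67.5 and 71.2 CPM in serum/LIF (-5.77 ± 0.36). The 2iL libraries of these 3 genes held at most 8.71 CPM. Myc, a growth regulator that BET inhibitors lower in many cells, had 4.95 and 4.57 CPM in 2iL, against 95 and 96.6 CPM in serum/LIF (-4.33 ± 0.17). With DMSO Myc had 6.33 and 6.82 CPM in 2iL, against 84.2 and 67.5 CPM in serum/LIF (-3.53 ± 0.16), so in serum/LIF it was not lower with JQ1. Its relative Mycn, which is not on the list, differed less, with 104 and 130 CPM in 2iL, against 155 and 210 CPM in serum/LIF (-0.64 ± 0.16). Etv5 and Etv4, ETS factors usually counted as ERK targets, went against the list. Etv5 had 596 and 648 CPM in 2iL, against 288 and 329 CPM in serum/LIF (1.01 ± 0.12) and Etv4 had 58.4 and 66.8 CPM in 2iL, against 25 and 31.3 CPM in serum/LIF (1.16 ± 0.14). Spred2, another inhibitor of the pathway, was the third member higher in 2iL (0.45 ± 0.11), a call that was lost without the second 2iL library (log2 fold change 0.28, adjusted p = 0.12).

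Targets of Wnt signalling were more often lower but did not move as 1 group: 4 of 16 were higher and 10 lower. Of all genes 25.4% were higher and 27.9% lower. The list's median was -1.05, and the lower calls of Sp5, Rnf43 and Tnfrsf19 did not hold under every alternative. Cdx1, a caudal homeobox factor, had 47.9 and 36.8 CPM in 2iL, against 1.65 and 1.21 CPM in serum/LIF (4.87 ± 0.33). Notum, an enzyme that switches Wnt proteins off, had 30.5 and 31.7 CPM in 2iL, against 2.91 and 1.98 CPM in serum/LIF (3.65 ± 0.26). Axin2, the feedback inhibitor most used as a readout, had 65 and 67.2 CPM in 2iL, against 50.6 and 25.9 CPM in serum/LIF (0.79 ± 0.26, adjusted p = 0.0215). The Axin2 call was lost without the second serum/LIF library (log2 fold change 0.33, adjusted p = 0.266), without the first 2iL library (log2 fold change 0.76, adjusted p = 0.0845) and without the second (log2 fold change 0.71, adjusted p = 0.113). Lef1, a TCF family factor, was lower, with 1.31 and 3.41 CPM in 2iL, against 75.8 and 52.5 CPM in serum/LIF (-4.71 ± 0.35, and -5.66 without the second 2iL library with JQ1). Bmp4, a ligand on this list and on that of BMP, had 10.4 and 12.6 CPM in 2iL, against 54 and 45.4 CPM in serum/LIF (-2.1 ± 0.15).

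In the LIF pathway 5 of 15 members were higher and 7 lower, where 25.4% of all genes were higher and 27.9% lower, with a median of -0.46. The receptor and its factor were among the higher ones. Lifr, the LIF receptor, had 103 and 104 CPM in 2iL, against 59.4 and 50.5 CPM in serum/LIF (0.92 ± 0.16), and Stat3 had 94.6 and 84.6 CPM in 2iL, against 54.6 and 49.3 CPM in serum/LIF (0.79 ± 0.11). Some targets of STAT3 were among the lower ones, whereas Bcl3, on the same list, had a ratio of means of 2.76, 2iL over serum/LIF. Socs3, which blocks the receptor, had 9.0 and 11.1 CPM in 2iL, against 22.8 and 25.7 CPM in serum/LIF (-1.26 ± 0.13), and Junb, an AP-1 factor, had 5.01 and 5.22 CPM in 2iL, against 97.7 and 85.7 CPM in serum/LIF (-4.16 ± 0.21).

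BMP ligands, receptors and targets were mostly lower: 11 of 17 were lower and 2 higher, with a median of -1.10. Serum carries BMP activity, and the Id genes, inhibitors of bHLH factors, are direct BMP targets. Id1 had 1.2 and 1.29 CPM in 2iL, against 150 and 146 CPM in serum/LIF (-6.88 ± 0.25). Id2 had 0.512 and 0.431 CPM in 2iL, against 33.4 and 30.8 CPM in serum/LIF (-6.09 ± 0.33). Id3 had 9.45 and 12.5 CPM in 2iL, against 63 and 65.5 CPM in serum/LIF (-2.54 ± 0.20). All 3 were lower in 2iL, Id3 by the smallest amount, whereas Id4 was higher, with 24.3 and 28.6 CPM in 2iL, against 4.0 and 5.37 CPM in serum/LIF (2.5 ± 0.21). The transducer Smad5 had 58.3 and 60.1 CPM in 2iL, against 62.2 and 48.9 CPM in serum/LIF, and its groups overlapped. The inhibitor Smad7 was the other member higher in 2iL (0.74 ± 0.12).

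Genes of Nodal signalling and mesendoderm, the first step towards mesoderm and endoderm, were mostly lower: 9 of 14 tested were lower and 2 higher, with a median of -4.03, and Cer1 was under the low-count filter. Wnt3, a ligand needed for gastrulation, had 0.0569 and 0.216 CPM in 2iL, against 46.2 and 21.7 CPM in serum/LIF (-7.8 ± 0.60, and -9.15 without the second 2iL library with JQ1 and -7.16 without the first serum/LIF library with JQ1). Mixl1, a mesendoderm factor, had 0.456 and 0.561 CPM in 2iL, against 4.78 and 5.76 CPM in serum/LIF (-3.34 ± 0.34). Fgf8, an FGF of the primitive streak, had 0.114 and 0.0431 CPM in 2iL, against 5.91 and 5.52 CPM in serum/LIF (-6.18 ± 0.42, and -6.93 without the first 2iL library with JQ1). These genes were close to 0 in 2iL. Lefty2, on the same list, had 0.171 and 0.862 CPM in 2iL, against 8.6 and 10.7 CPM in serum/LIF (-4.1 ± 0.68). Its relative Lefty1 held 13 counts over both 2iL libraries, against 552 over both serum/LIF libraries. The ligand Nodal itself was higher, with 76.1 and 56.4 CPM in 2iL, against 42.5 and 33.4 CPM in serum/LIF (0.80 ± 0.17). Gsc, a homeobox factor of the organizer, was the other higher member, at 3.82 and 5.82 CPM in 2iL, against 0.174 and 0.0484 CPM in serum/LIF (5.34 ± 0.58, and 6.50 without the first serum/LIF library with JQ1 and 4.70 without the second serum/LIF library with JQ1). Eomes, a T-box factor of mesendoderm, had 20.3 and 13.9 CPM in 2iL, against 12.3 and 12.8 CPM in serum/LIF and did not pass (0.43 ± 0.20, adjusted p = 0.0875), although it did without the second 2iL library (log2 fold change 0.63, adjusted p = 0.0331).

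Genes of the actin cytoskeleton showed the widest gap downwards of the lists that are not markers of another cell type. All 18 targets of SRF and YAP were lower in 2iL, where 27.9% of all genes were, with a median of -4.67 (-4.44 with genes at 0 set to their bound). SRF answers to serum and to actin, and YAP to stretch and attachment. The list's summed level was 1498 and 1376 CPM in 2iL, against 10495 and 6494 CPM in serum/LIF, so the serum/LIF libraries also differed from each other. Acta2, smooth muscle actin, had no count in either 2iL library, against 388 and 236 CPM in serum/LIF, which is at least 2076-fold lower in 2iL at a floor of 3 counts per library. Tagln, an actin-binding protein of smooth muscle, had 0 and 0.0862 CPM in 2iL, against 884 and 555 CPM in serum/LIF. Ccn1, a secreted YAP target, had 2.79 and 2.16 CPM in 2iL, against 659 and 363 CPM in serum/LIF (-7.7 ± 0.39). Members that many cells express were lower too, by less. Flna, which crosslinks actin, had 595 and 524 CPM in 2iL, against 3159 and 1767 CPM in serum/LIF (-2.14 ± 0.23). Actg1, cytoplasmic gamma actin, which is not on the list, had 2448 and 2184 CPM in 2iL, against 5397 and 4350 CPM in serum/LIF (-1.07 ± 0.19).

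Srf itself had 49.9 and 47.3 CPM in 2iL, against 131 and 110 CPM in serum/LIF (-1.31 ± 0.16), and Myl9, a myosin light chain, had 0.0569 and 0.129 CPM in 2iL, against 19.4 and 21.3 CPM in serum/LIF (-7.62 ± 0.40, and -8.40 without the second 2iL library with JQ1). The promoters of Acta2, Myl9 and Srf are shown because SRF binds a short element, the CArG box, and these windows hold it or a near match. They were chosen after the windows had been read, as was the near match, which has 1 G or C in the core of the box in place of A or T. The letters are those of RefSeq on GRCm38.p6 over the same span around the start site, for Acta2 chr19:34255324-34255623 on the minus strand, for Myl9 chr2:156775214-156775513 on the plus strand and for Srf chr17:46556113-46556412 on the minus strand. Capitals mark CArG boxes and near matches and, in Srf, also an octamer core (ATGCAAA, the reverse complement of TTTGCAT) and a match (CCGGAAG) for ETS factors.

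Acta2 promoter: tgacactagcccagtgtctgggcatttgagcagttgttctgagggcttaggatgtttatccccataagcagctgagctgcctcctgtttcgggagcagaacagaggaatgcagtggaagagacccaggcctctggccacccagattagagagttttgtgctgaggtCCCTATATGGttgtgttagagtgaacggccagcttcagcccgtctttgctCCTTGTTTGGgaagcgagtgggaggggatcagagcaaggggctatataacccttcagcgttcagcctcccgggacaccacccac
Myl9 promoter: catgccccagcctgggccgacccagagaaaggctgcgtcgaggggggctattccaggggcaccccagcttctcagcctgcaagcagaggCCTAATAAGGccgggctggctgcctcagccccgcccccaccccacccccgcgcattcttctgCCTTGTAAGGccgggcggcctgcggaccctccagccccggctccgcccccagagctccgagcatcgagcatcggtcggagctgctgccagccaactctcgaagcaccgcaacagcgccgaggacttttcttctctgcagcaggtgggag
Srf promoter: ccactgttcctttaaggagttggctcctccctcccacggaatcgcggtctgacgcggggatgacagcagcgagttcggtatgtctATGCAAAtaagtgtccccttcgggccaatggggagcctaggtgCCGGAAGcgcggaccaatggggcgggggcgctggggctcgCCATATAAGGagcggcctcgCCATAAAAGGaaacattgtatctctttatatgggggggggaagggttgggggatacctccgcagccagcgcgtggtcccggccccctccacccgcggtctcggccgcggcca

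Acta2 holds 2 near matches, 84 and 34 bases before the start site. Myl9 holds 1 CArG box, 161 bases before it, and 1 near match, and Srf holds 2 CArG boxes, 82 and 62 bases before it. Of the 16 list members with a window 4 hold a CArG box (25.0%), where 1.81% of the 27025 genes with a window do, 2.28% of the genes lower in 2iL by a log2 fold change of at least 1 and 1.67% of those higher by as much. The list was made of known SRF and YAP targets, and other small lists also lay above the share of all genes, with 20.0% of the MEK-ERK targets with a window, 18.2% of the Wnt targets and 14.3% of the imprinted genes. Near matches were in the windows of 12.5% of list members and 9.69% of all genes. A match describes letters and is not a binding site.

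**Figure D3:**
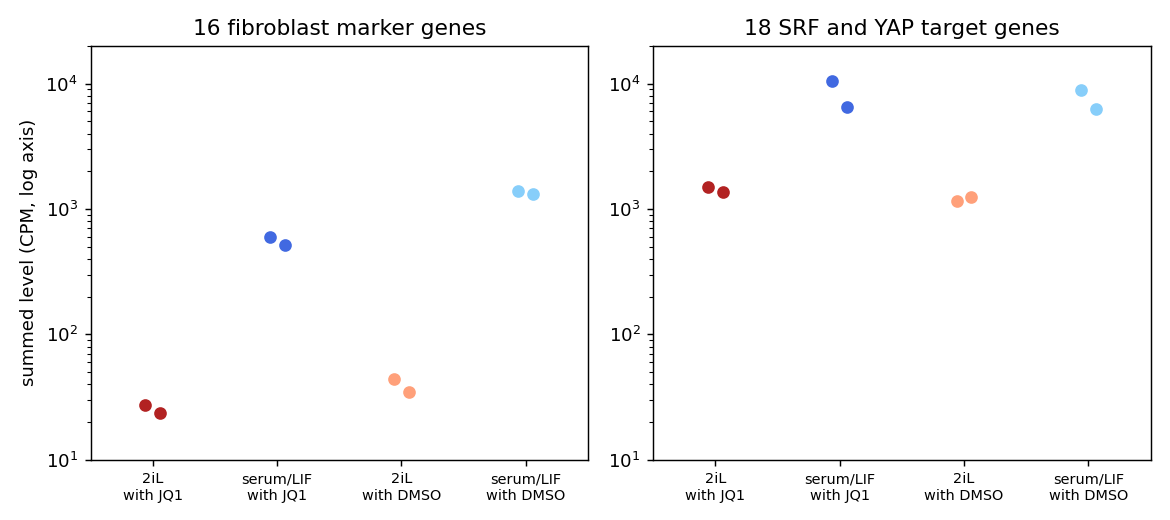
Summed level (CPM, log axis) of 16 fibroblast marker genes (left) and 18 SRF and YAP target genes (right) in each unmodified library, 1 point per library, in the order 2iL with JQ1, serum/LIF with JQ1, 2iL with DMSO and serum/LIF with DMSO. Both sums are lower in 2iL under either treatment, for fibroblast markers 27.2 and 23.4 CPM in 2iL with JQ1, against 594 and 512 CPM in serum/LIF with JQ1.

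Markers of fibroblasts, the feeder cells on which the serum/LIF cells had been kept, were lower in 2iL as well. This held for all 15 tested of 16 markers, with a median of -7.26 (-4.89 with genes at 0 set to their bound). Their summed level was 27.2 and 23.4 CPM in 2iL, against 594 and 512 CPM in serum/LIF. In serum/LIF with DMSO the markers summed to 1397 and 1308 CPM, and the SRF and YAP targets to 8855 and 6264 CPM. Within serum/LIF the marker sum was thus lower with JQ1 than with DMSO, and the SRF and YAP sum was not. In 2iL 12 of the 16 were under 1 CPM in both libraries and 6 had no count, namely Col6a1, Col6a2, Col6a3, Postn, Dcn and Lum. Col1a1, a chain of the main fibrous collagen, had 0.171 and 0 CPM in 2iL, against 206 and 211 CPM in serum/LIF. Col5a1 was measured in both media, with 15.9 and 14.6 CPM in 2iL, against 160 and 92.4 CPM in serum/LIF (-3.05 ± 0.24). Acta2, Tagln and other SRF targets are also expressed by fibroblasts. The part of fibroblast RNA in the genes lower in 2iL was not tested, and in bulk RNA fewer cells of a type and less RNA per cell cannot be told apart.

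Adhesion genes were mostly lower: 12 of 16 were lower and 2 higher, with a median of -1.38 (-1.38 with Esrp1 at its bound). Epcam, an adhesion protein of epithelia and ES cells, had 8.94 and 10.1 CPM in 2iL, against 347 and 365 CPM in serum/LIF (-5.22 ± 0.13). Esrp1, an epithelial splicing factor, had no count in 2iL, against 95.6 and 100 CPM in serum/LIF, at least 653-fold lower in 2iL at the floor. Cdh1, E-cadherin, differed less, with 769 and 729 CPM in 2iL, against 1519 and 1145 CPM in serum/LIF (-0.83 ± 0.13). Cdh2, N-cadherin, was lower as well, with 17.6 and 20.6 CPM in 2iL, against 147 and 97.9 CPM in serum/LIF (-2.68 ± 0.19). Zeb1, a repressor of epithelial genes, was higher, with 46.4 and 46.9 CPM in 2iL, against 8.64 and 6.82 CPM in serum/LIF (2.59 ± 0.15). Fn1, fibronectin, was the other higher member, with 4430 and 3666 CPM in 2iL, against 2038 and 1322 CPM in serum/LIF (1.27 ± 0.19), and had the highest mean CPM, a scale not divided by gene length, of the named protein-coding genes higher by a log2 fold change of at least 1.

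Markers of other lineages differed from list to list. For primitive endoderm 9 of 13 were lower and 1 higher, with a median of -2.61. The list's summed level was 265 and 252 CPM in 2iL, against 1393 and 939 CPM in serum/LIF. The factors Gata6 and Sox17 stood under 1 CPM in all 4 libraries. Gata4, a related factor on the list, held 17 counts over both 2iL libraries, against 110 over both serum/LIF libraries. Dab2, another member, held 8 counts in 2iL, against 1017 in serum/LIF. Genes of the basement membrane went opposite ways. Col4a1, a collagen chain, had 2.96 and 2.29 CPM in 2iL, against 277 and 170 CPM in serum/LIF (-6.43 ± 0.36), whereas the laminin chain Lama1 had 128 and 140 CPM in 2iL, against 19.4 and 16.9 CPM in serum/LIF (2.88 ± 0.24). For trophoblast 5 of 8 tested were lower and 2 higher (1 without the second serum/LIF library or the first 2iL library), with a median of -3.06 (-3.06 with Hand1 at its bound). Gata3, a trophoblast factor, had 0.399 and 0.431 CPM in 2iL, against 9.43 and 5.08 CPM in serum/LIF (-4.11 ± 0.45), and Tfap2c, which naive and germ cells also use, had 95.8 and 125 CPM in 2iL, against 30.2 and 38.1 CPM in serum/LIF (1.69 ± 0.23). For neuroectoderm 3 of 7 tested were higher and 3 lower, with a median of -0.61. Members of the SOX family went opposite ways there: Sox21 had 92.4 and 78.3 CPM in 2iL, against 1.35 and 2.23 CPM in serum/LIF (5.59 ± 0.23), and Sox11 had 1.99 and 2.37 CPM in 2iL, against 172 and 144 CPM in serum/LIF (-6.16 ± 0.22). Genes of the state that resembles the 2-cell embryo, such as the Zscan4 copies, had a summed level of 0.171 and 0.431 CPM in 2iL, against 0.13 and 0.194 CPM in serum/LIF. Of the 9 tested none passed in edgeR, with 0 at an unadjusted p under 0.05 and 0 in DESeq2. Reads of such near-identical copies can be split between genes, so single members are uncertain and not given.

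The DNA methylation machinery split by role, with 4 of 10 genes higher, 4 lower and a median of 0.17. The de novo enzymes and their cofactor were lower. Dnmt3b had 102 and 104 CPM in 2iL, against 780 and 964 CPM in serum/LIF (-3.08 ± 0.14). Dnmt3a had 24.1 and 33.2 CPM in 2iL, against 58.5 and 86.9 CPM in serum/LIF (-1.34 ± 0.22). Dnmt3l, the cofactor, had 14.5 and 6.86 CPM in 2iL, against 179 and 233 CPM in serum/LIF (-4.29 ± 0.28, and -4.95 without the first 2iL library with JQ1). The maintenance genes were higher. Uhrf1, which guides Dnmt1 to new DNA, had 620 and 546 CPM in 2iL, against 259 and 257 CPM in serum/LIF (1.17 ± 0.10). Dnmt1 had 539 and 520 CPM in 2iL, against 335 and 297 CPM in serum/LIF (0.74 ± 0.12). The enzymes that oxidise methylated cytosine did not move together: Tet2 had 264 and 226 CPM in 2iL, against 23.2 and 15.1 CPM in serum/LIF (3.67 ± 0.25), Tet1 was higher too (1.6 ± 0.22), and Tet3 was lower, with 15.3 and 14.2 CPM in 2iL, against 48.7 and 30.3 CPM in serum/LIF (-1.42 ± 0.21).

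Germline genes, many of which DNA methylation keeps silent, went both ways: 6 of 14 were higher and 5 lower, with a median of 0.60. Dazl, an RNA-binding protein of germ cells, had 116 and 126 CPM in 2iL, against 3.39 and 3.48 CPM in serum/LIF (5.14 ± 0.21). Hormad1, a meiotic chromosome protein, had 17.3 and 23 CPM in 2iL, against 0.478 and 0.629 CPM in serum/LIF (5.18 ± 0.32). Stra8, which starts meiosis, had 5.41 and 5.69 CPM in 2iL, against no count in serum/LIF, at least 40.3-fold higher in 2iL at the floor. Ddx4, a germ cell helicase, was lower, with 3.64 and 4.48 CPM in 2iL, against 12.9 and 14.8 CPM in serum/LIF (-1.76 ± 0.17). Of imprinted genes 14 of 18 were lower and 1 higher, with a median of -2.15. Igf2, a fetal growth factor, had 0.968 and 0.604 CPM in 2iL, against 124 and 63.6 CPM in serum/LIF (-6.93 ± 0.39). Peg10, a gene derived from a retrotransposon, had 23.3 and 28.3 CPM in 2iL, against 2312 and 1270 CPM in serum/LIF (-6.11 ± 0.35), and its serum/LIF libraries differed from each other. Plagl1, a zinc finger factor, was the higher one, with 35.1 and 69.4 CPM in 2iL, against 3.69 and 4.16 CPM in serum/LIF (3.74 ± 0.32, and 3.11 without the second 2iL library with JQ1).

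With list members included, the protein-coding genes with the highest log2 fold changes among those with at least 5 CPM included Pkd2l1, Aurkc, Crxos, Tex13b and Stra8, none of which had a count in serum/LIF with JQ1. Pkd2l1, a cation channel, had 19 and 18.4 CPM in 2iL and was at least 136-fold higher at the floor. Aurkc, an Aurora kinase of meiosis, had 13.8 and 16.8 CPM in 2iL and was at least 111-fold higher. Crxos, a homeobox gene of the early embryo, had 15.8 and 13.9 CPM in 2iL and was at least 108-fold higher. In each of the 3 genes both 2iL libraries stood clear of the serum/LIF libraries, which follows from picking the highest fold changes and adds no support. The lowest were Acta2, Esrp1, Tagln, Lox, Car4, Bgn, Prss23, Tnc, Gbp2 and Ltb, of which all but Tagln had no count in 2iL. Lox, an enzyme that crosslinks collagen, had no count in 2iL, against 64.8 and 63.6 CPM in serum/LIF, and was at least 428-fold lower. Tnc, a matrix protein, had no count in 2iL, against 58.5 and 47.3 CPM in serum/LIF, and was at least 352-fold lower. Lox, Bgn and Tnc encode matrix proteins that fibroblasts make. After Fn1 the next highest mean CPM among genes higher by a log2 fold change of at least 1 was that of Mt2, H2afx, Msh6 and Kdm5b. Mt2, a metallothionein, had 1386 and 1489 CPM in 2iL, against 234 and 333 CPM in serum/LIF (2.34 ± 0.18), and Msh6, a mismatch repair protein, had 995 and 993 CPM in 2iL, against 258 and 303 CPM in serum/LIF (1.83 ± 0.13).

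Lists of metabolic and mitochondrially encoded genes had medians between -0.55 and 0.41. Of glycolysis genes 6 of 16 were higher and 4 lower, where 25.4% of all genes were higher and 27.9% lower, with a median of -0.08. The cholesterol, serine and lysosome lists are read against the same shares. Pfkp, a phosphofructokinase, had 483 and 495 CPM in 2iL, against 101 and 117 CPM in serum/LIF (2.16 ± 0.19), whereas the glucose transporter Slc2a1 was lower, with 382 and 368 CPM in 2iL, against 1374 and 845 CPM in serum/LIF (-1.56 ± 0.18). Of lysosome and autophagy genes 10 of 16 were higher and 3 lower, with a median of 0.41. Hexa, a lysosomal enzyme, had 77.4 and 68.3 CPM in 2iL, against 15.3 and 21.3 CPM in serum/LIF (1.99 ± 0.16), and Tfeb, the factor that drives lysosomal genes, was higher too (2.27 ± 0.19). Of cholesterol synthesis genes 7 of 17 were higher (3 without the second serum/LIF library or the first 2iL library and 4 without the second 2iL library) and 2 lower, with a median of 0.29. Of genes for serine, one-carbon and amino acid stress 6 of 15 were higher (3 without the second 2iL library) and 2 lower, with a median of 0.23. Asns, which makes asparagine, had 941 and 884 CPM in 2iL, against 207 and 232 CPM in serum/LIF (2.05 ± 0.10), and Phgdh, the first enzyme of serine synthesis, was lower, with 42.2 and 49.8 CPM in 2iL, against 179 and 226 CPM in serum/LIF (-2.14 ± 0.14). Of mitochondrially encoded genes 10 of 13 were lower (6 without the first 2iL library), with a median of -0.55.

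Of antigen presentation and interferon genes 10 of 15 tested were lower and 2 higher (1 without the first serum/LIF library or the second 2iL library), with a median of -2.68, and H2-K1, an MHC class I chain that fibroblasts also express, had 3.93 and 5.74 CPM in 2iL, against 151 and 139 CPM in serum/LIF (-4.89 ± 0.18). Of cell cycle regulators 8 of 17 were higher and 5 lower, with a median of 0.12. The D-type cyclins went opposite ways: Ccnd2 had 0.626 and 0.474 CPM in 2iL, against 42.1 and 41.6 CPM in serum/LIF (-6.26 ± 0.29), and Ccnd3 had 372 and 314 CPM in 2iL, against 139 and 158 CPM in serum/LIF (1.21 ± 0.14). Some inhibitors of cyclin-dependent kinases were higher, with Cdkn1a, also a target of p53, at 148 and 151 CPM in 2iL, against 46 and 31.5 CPM in serum/LIF (1.95 ± 0.21), and Cdkn2a at 33.8 and 30.8 CPM in 2iL, against 7.6 and 8.28 CPM in serum/LIF (2.02 ± 0.15). Of p53 targets 4 of 14 were higher and 4 lower, and of ribosome biogenesis genes 3 of 15 were higher (1 without the first 2iL library or the second 2iL library) and 5 lower. Both lists lie near the shares over all genes, 25.4% higher and 27.9% lower.

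The targets of JQ1 and their partners had log2 fold changes with a median near 0 between the media. Of 18 genes for BET proteins, the elongation factor P-TEFb and Mediator, 8 were higher (4 without the second serum/LIF library or the first 2iL library and 5 without the second 2iL library) and 2 lower (1 without the first serum/LIF library or the first 2iL library), with a median of 0.19. Brd2, a BET protein, had 528 and 550 CPM in 2iL, against 553 and 488 CPM in serum/LIF, and its relative Brd3 had 196 and 171 CPM in 2iL, against 176 and 199 CPM in serum/LIF. In Brd2 and Brd3 the libraries of the media overlapped. Hexim1, an inhibitor of P-TEFb used as a readout of BET inhibition, had 81.3 and 86.1 CPM in 2iL, against 88.5 and 87.6 CPM in serum/LIF and did not pass (-0.07 ± 0.10). Aff1, a scaffold of elongation complexes, had the largest difference of the list, with 369 and 362 CPM in 2iL, against 77.4 and 38.3 CPM in serum/LIF (2.66 ± 0.26, and 3.25 without the first serum/LIF library with JQ1).

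Most of the medium difference under JQ1 was also seen with DMSO, in libraries that the comparison under JQ1 does not use. With DMSO 9311 genes passed (54.8%). Of the genes higher in 2iL, 3428 were higher under both treatments, which is 79.6% of those under JQ1 and 71.4% of those with DMSO. Of the genes lower in 2iL, 3687 were lower under both, which is 77.8% of those under JQ1 and 81.8% of those with DMSO. In 19 genes higher and 53 genes lower under JQ1 the call with DMSO was the opposite one. Across the 16987 genes the log2 fold changes under JQ1 and with DMSO had a Pearson r of 0.864, given as a description because genes are not independent replicates.

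**Figure D4:**
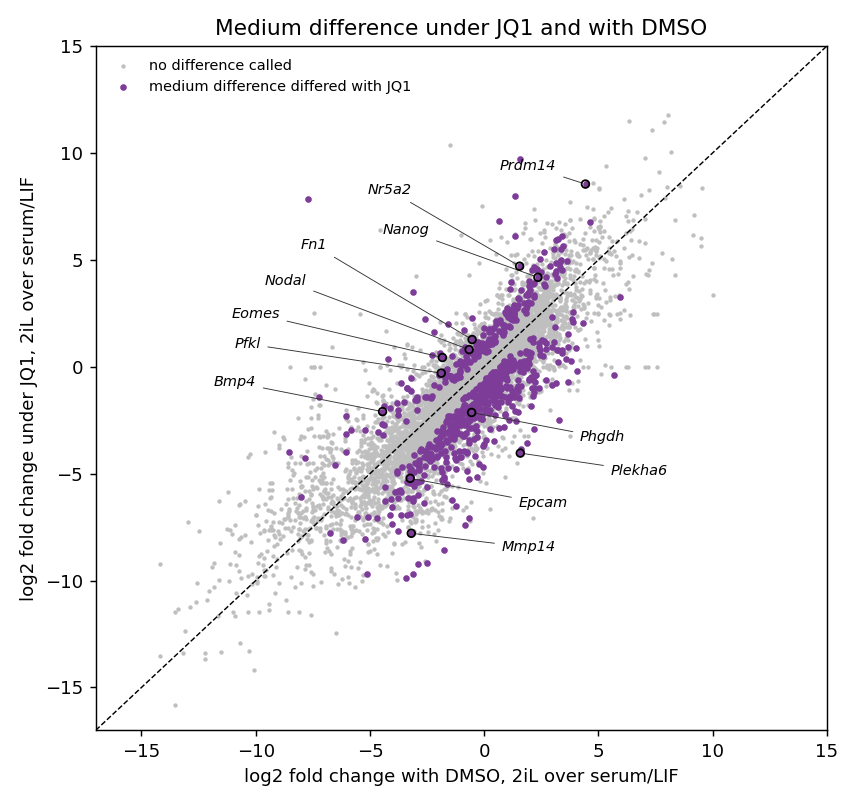
Log2 fold change of 2iL over serum/LIF under JQ1 (vertical axis) against that with DMSO (horizontal axis), 1 point for each of 16987 genes, with a dashed line of equality. The 706 genes whose medium difference differed with JQ1 are in colour and lie off the line, where most genes lie along it, and 12 of them are named.

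The medium difference itself differed with JQ1 in 706 genes (4.16%). It was higher under JQ1 than with DMSO in 230 (1.35%) and lower in 476 (2.80%), and at an unadjusted p under 0.05 there were 2937. The count of 706 was smaller without the first 2iL library with JQ1 (383), the second 2iL library with JQ1 (330) or the second serum/LIF library with DMSO (468). Naive pluripotency genes were the list with the most members among the higher ones, 13 of 18, with a median difference of 1.34 where all genes had -0.05. Of these 13 calls 9 held under every alternative setting and with each library left out, and those of Esrrb, Zfp42, Tcl1 and Manba did not. The highest adjusted p with 1 library left out was 0.102 for Esrrb (without the second 2iL library with JQ1), 0.12 for Zfp42 (without the second serum/LIF library with DMSO), 0.177 for Tcl1 (without the second 2iL library with JQ1) and 0.107 for Manba (without the second 2iL library with JQ1). Nanog had 908 and 969 CPM in 2iL with JQ1, against 44.3 and 59.6 CPM in serum/LIF with JQ1, and 846 and 756 CPM in 2iL with DMSO, against 140 and 174 CPM in serum/LIF with DMSO. Its medium difference was 4.18 under JQ1 and 2.35 with DMSO, a difference of 1.83 ± 0.20 (adjusted p = 0.000654). In Nanog the 2iL libraries lay close together whatever the treatment, and the serum/LIF libraries with JQ1 were the lowest. Nr5a2 showed the same order, with 118 and 117 CPM in 2iL with JQ1, against 4.43 and 4.6 CPM in serum/LIF with JQ1, and 92 and 108 CPM in 2iL with DMSO, against 27.2 and 41.6 CPM in serum/LIF with DMSO (difference 3.15 ± 0.25, adjusted p = 5.25e-05). Prdm14 did so too, with 2.2 and 4.71 CPM in serum/LIF with DMSO (difference 4.11 ± 0.64, adjusted p = 0.00355).

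In some genes the direction turned with the treatment. Fn1 was higher in 2iL under JQ1 (1.27) and lower with DMSO (-0.53), where it had 1676 and 2156 CPM in 2iL with DMSO, against 2878 and 2665 CPM in serum/LIF with DMSO, a difference of 1.8 ± 0.26 (adjusted p = 0.00248). The call of Fn1 with DMSO was lost without the first serum/LIF library with DMSO (log2 fold change -0.47, adjusted p = 0.108) and without the first 2iL library with DMSO (log2 fold change -0.41, adjusted p = 0.142). Nodal likewise was higher under JQ1 (0.80) and lower with DMSO (-0.66), where it had 127 and 105 CPM in 2iL with DMSO, against 187 and 181 CPM in serum/LIF with DMSO (difference 1.46 ± 0.23, adjusted p = 0.00376). Plekha6, which encodes a pleckstrin homology protein, turned the other way (-4.04 under JQ1 and 1.58 with DMSO), with 0.114 and 0.172 CPM in 2iL with JQ1, against 2.52 and 2.47 CPM in serum/LIF with JQ1, and 6.42 and 7.74 CPM in 2iL with DMSO, against 2.2 and 2.56 CPM in serum/LIF with DMSO (difference -5.62 ± 0.47, adjusted p = 5.81e-05). Eomes was lower in 2iL with DMSO, where it had 14 and 9.03 CPM in 2iL with DMSO, against 42.5 and 39.7 CPM in serum/LIF with DMSO, and did not pass under JQ1 (difference 2.27 ± 0.28, adjusted p = 0.00148).

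Of glycolysis genes 8 of 16 had a higher difference, where 1.35% of all genes did, with a median difference of 0.62. The calls of Eno1, Pkm and Pdk1 among them did not hold under every alternative. With DMSO 10 of the 16 were lower in 2iL, where 26.5% of all genes were, and 4 higher, where 28.3% were. Pfkl, the liver-type phosphofructokinase, had 247 and 222 CPM in 2iL with JQ1, against 271 and 308 CPM in serum/LIF with JQ1, and 67.8 and 66.3 CPM in 2iL with DMSO, against 254 and 239 CPM in serum/LIF with DMSO (difference 1.58 ± 0.14, adjusted p = 0.000114). Ldha, lactate dehydrogenase, had 1004 and 927 CPM in 2iL with JQ1, against 1243 and 1527 CPM in serum/LIF with JQ1, and 377 and 336 CPM in 2iL with DMSO, against 1186 and 1138 CPM in serum/LIF with DMSO (difference 1.18 ± 0.17, adjusted p = 0.00248). In both genes the 2iL libraries with DMSO were the low ones, and none of the other 6 unmodified libraries overlapped with them.

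**Figure D5:**
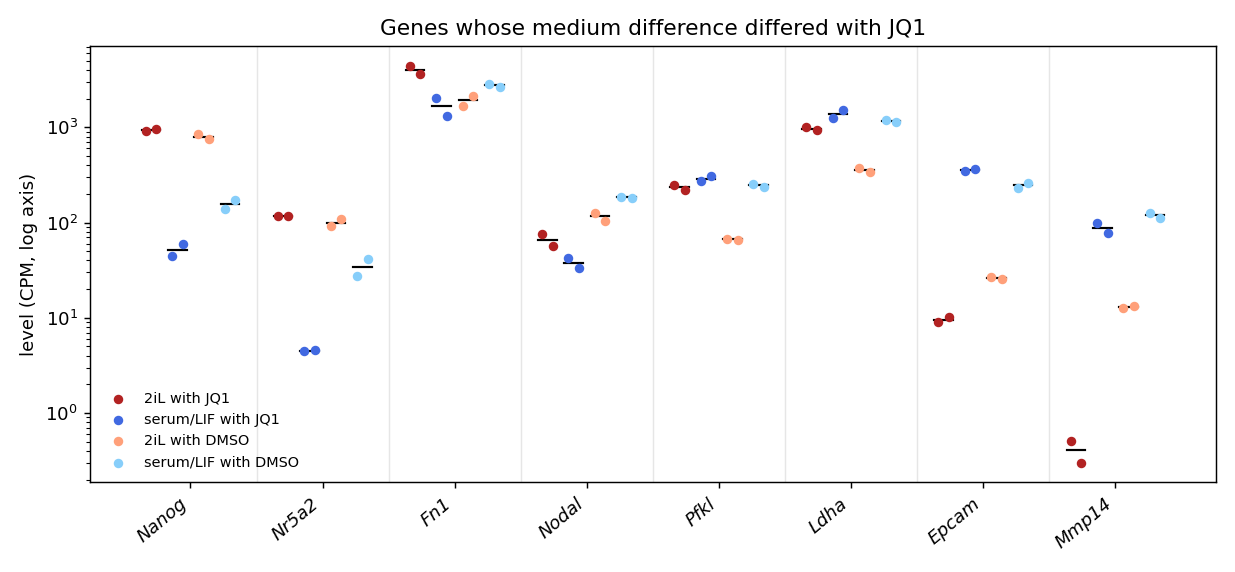
Level in each unmodified library (CPM, log axis) of 8 genes whose medium difference differed with JQ1, in the order 2iL with JQ1, serum/LIF with JQ1, 2iL with DMSO and serum/LIF with DMSO, with a short bar at each group's mean. In Nanog and Nr5a2 the serum/LIF libraries with JQ1 are the lowest, in Pfkl and Ldha the 2iL libraries with DMSO are, and in Epcam and Mmp14 the 2iL libraries with JQ1 are.

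Among genes whose difference was lower under JQ1, Epcam had 26.5 and 25.5 CPM in 2iL with DMSO, against 233 and 260 CPM in serum/LIF with DMSO, so that its medium difference was -5.22 under JQ1 and -3.24 with DMSO (difference -1.97 ± 0.16, adjusted p = 5.81e-05). Mmp14, a membrane-bound matrix protease, had 0.512 and 0.302 CPM in 2iL with JQ1, against 100 and 76.8 CPM in serum/LIF with JQ1, and 12.7 and 13.4 CPM in 2iL with DMSO, against 126 and 112 CPM in serum/LIF with DMSO (difference -4.6 ± 0.33, adjusted p = 2.68e-05). Phgdh had 118 and 99 CPM in 2iL with DMSO, against 164 and 154 CPM in serum/LIF with DMSO (difference -1.59 ± 0.19, adjusted p = 0.0014). In Epcam, Mmp14 and Phgdh the 2iL libraries with JQ1 were the lowest of the 8. Bmp4 moved the other way, with 2.71 and 2.53 CPM in 2iL with DMSO, against 63.6 and 51.2 CPM in serum/LIF with DMSO (difference 2.35 ± 0.22, adjusted p = 0.000191). Of the 18 SRF and YAP targets none passed the test of the difference in edgeR, with 2 at an unadjusted p under 0.05 and 1 in DESeq2. Of the 18 BET, P-TEFb and Mediator genes none did either, with 4 at an unadjusted p under 0.05 and 2 in DESeq2. With 4.16% of all genes passing, no call in lists of this size says nothing particular about them. Of the 15 fibroblast markers tested 2 passed, Thy1 (-3.88 ± 0.96) and Mmp2 (-2.38 ± 0.54), and with single libraries left out their adjusted p ran from 0.0278 to 0.262 for Thy1 and from 0.0076 to 0.144 for Mmp2. The summed level of the fibroblast markers with DMSO was 44.2 and 34.7 CPM in 2iL, against 1397 and 1308 CPM in serum/LIF, so these markers were lower in 2iL under either treatment, and their part in the 706 calls was not tested.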

How the data were processed

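RNA was extracted with TRIzol and libraries of polyadenylated RNA were sequenced as paired reads on an Illumina NovaSeq, per the labels' protocols. The authors deposited estimated (expected) counts per gene for each library, which RSEM makes and which need not be whole. Per the submitters' processing notes, the build was mm10 and the tools were STAR 2.5.2, RSEM, bcl2fastq and DESeq2 1.18.1, and the annotation release is not given in the sources used here. Between 6.11% and 8.71% of the deposited values per library were not whole, so expected counts were rounded to whole numbers first. Of 52550 gene IDs 52403 matched the mouse annotation without their version suffix and 49035 with it. RSEM shares reads among copies and overlapping genes, which leaves near-identical genes uncertain.

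All 12 libraries entered 1 fit with a term per group, in R 4.3.3 with edgeR 4.0.16, TMM scaling and the filterByExpr minimum of 10 counts (total 15). The fit had 6 residual degrees of freedom and a common biological coefficient of variation of 0.129. Each SE was taken from the log2 fold change and its F statistic, as the ratio of the change's size to the root of F. The procedure was tested on simulated data in which far fewer genes changed than differed here, so that test does not cover this setting. DESeq2 1.42.0, other scalings, filters and sets of libraries, a replicate block and leaving out each library were the alternatives. A group with no count was set to a floor of 3 counts per library, which covers counting error only.

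Named genes were list members, genes fixed by name, the 10 highest and 10 lowest protein-coding genes that passed with at least 5 CPM, the 5 with the highest mean CPM in each direction with a log2 fold change of at least 1 in size, and the 5 highest and 5 lowest in the test of the difference. The text gives a part of them, chosen for their roles. The members and lists were chosen with earlier results of these data known. Promoter letters are those of RefSeq on GRCm38.p6, the build that mm10 names, 300 bases per window.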

Additional observations from a re-analysis of the deposited data

Results flagged for a closer look

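Of the genes given in the test of whether the medium difference itself differed with JQ1, 19 passed at an adjusted p under 0.05 in edgeR, and these are the log2 differences, the medium difference under JQ1 minus that with DMSO. Among naive pluripotency genes the difference was 4.11 for Prdm14, 3.15 for Nr5a2, 1.83 for Nanog, 1.71 for Tcl1, 1.34 for Manba, 1.32 for Zfp42 and 1.27 for Esrrb. Ligands and factors of early development had 2.35 for Bmp4, 2.27 for Eomes and 1.46 for Nodal. Fn1 had 1.80, and the glycolysis genes Pfkl and Ldha had 1.58 and 1.18. Negative differences were seen for Plekha6 (-5.62), Mmp14 (-4.60), Thy1 (-3.88), Mmp2 (-2.38), Epcam (-1.97) and Phgdh (-1.59). Each value compares 4 libraries with 4, and no explanation was tested for any of them.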

How the results depend on the processing

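No named gene reversed its direction under an alternative where it passed there or in the main fit. Direction was not compared where a gene passed in neither. The balance of calls with DMSO, 4802 higher and 4509 lower in 2iL, turned with RLE scaling (4262 higher, 4874 lower), DESeq2 (3953, 4476), no low-count filter (4835, 4844), only the compared libraries (3662, 4191), no mitochondrially encoded genes (4410, 4756) and each DMSO library left out (3809 to 4057 higher, 3856 to 4360 lower), so it is not read as a direction. With a log2 fold change of at least 1 required in size, 5309 genes passed under JQ1 and 5374 with DMSO. The count of 9046 under JQ1 ran from 7090 to 8062 with each library left out and from 7790 to 9214 under the other settings, and that of 9311 with DMSO ran from 7694 to 8395 and from 7853 to 9679. The count of 706 for the difference was the least stable. It was 1478 without a low-count filter, 431 with only the libraries compared or only unmodified cells in the fit (the same 8 libraries), and 330 to 784 with each library left out, and the cause was not tested. Leaving out a library leaves its group with 1, assumed to vary like the others. Without TMM scaling the median over all genes shifted to 0.104 with DMSO and -0.153 for the difference. Of 1844 values of named genes under alternatives, 1787 kept their side of the threshold, 56 no longer passed and 1 newly passed. The calls lost under some setting were Tcl1, Thy1, Zfp42, Esrrb, Mmp2 and Manba for the difference, Axin2, Pfkl, Pou5f1 and Spred2 under JQ1, and Fn1 with DMSO. Same-numbered libraries deviated together in some pairs of groups and not in others, with a correlation of 0.08 between the JQ1 groups compared and of -0.272 to 0.313 between other groups, and the numbers were not taken as pairs. With the replicate block the counts were 9214, 9572 and 920. Depth limits genes near 0 counts, for which fitted fold changes are no bound.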

Other observations

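Of the 4 libraries of GSK3 knockout ES cells in serum/LIF, the 2 with JQ1 are set here beside the unmodified cells with JQ1. Summed over the 18 SRF and YAP targets they held 1385 and 1253 CPM. That is near the 1498 and 1376 CPM of unmodified cells in 2iL with JQ1 and below the 10495 and 6494 CPM of unmodified cells in serum/LIF with JQ1. Summed over the 15 formative and primed genes they held 434 and 418 CPM, against 311 and 356 CPM in 2iL and 2024 and 2492 CPM in serum/LIF. Summed over the 18 naive pluripotency genes they held 2839 and 2843 CPM, against 5447 and 5389 CPM in 2iL and 505 and 606 CPM in serum/LIF. For the 18 MEK-ERK targets the sum was 1315 and 1416 CPM, against 898 and 994 CPM in 2iL and 1446 and 1389 CPM in serum/LIF. Most of the 2iL sums came from Etv5, which went against the list, so the sum does not stand for the other members. The fibroblast markers summed to 271 and 205 CPM in the knockout libraries, against 27.2 and 23.4 CPM in 2iL and 594 and 512 CPM in serum/LIF, and their part in these sums was not tested. These sums are given as levels with no test.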
